A study of Mus musculus with 2 samples.

Results

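Macrophages and other myeloid cells of the uterus were followed here through 50 genes that such cells use: the colony stimulating factors and their receptors, the transcription factors of the lineage, genes of all leukocytes, and the surface receptors and enzymes of phagocytes. The members are the probe sets of the deposited value table whose single gene symbol in the platform annotation is one of these 50 names, and all 50 were on the array, with 97 probe sets among 45101, and as 50 of 18193 genes. The comparison set uterine stromal cells of Msx1Msx2-null C57BL/6 mice on day 4 of pregnancy, in which floxed Msx1 and Msx2 alleles had been deleted with PRcre, against the same preparation from Msx1Msx2 floxed control mice of the same strain and day. Whether the controls carried PRcre, and the ages of the mice, are not stated in the labels. There was 1 array of pooled RNA per genotype, with 5 mice each in the treatment protocol and 4 each in the extraction protocol.

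In PRcre mice the progesterone receptor gene drives Cre recombinase, so deletion takes place in cells that express this receptor, in the epithelium as well as in the stroma. Tissue macrophages depend on the receptor for colony stimulating factor 1, which the pregnant uterus makes under the control of ovarian steroids. Receptors for granulocyte-macrophage colony stimulating factor, interleukin 3 and interleukin 5 pair a ligand-specific alpha chain with a beta chain, and act in macrophages, granulocytes and mast cells. Macrophages bind antibody-coated material through Fc receptors, sugars through C-type lectins and the mannose receptor, and microbial products through Toll-like receptors.

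With 1 pool per genotype there is no replicate error, and no test was made. Differences are given by size only, and genotype, pool and hybridization cannot be told apart. Values are MAS5 signals, the authors' linear intensity per probe set, and a gene is given by its brightest probe set. A signal was counted as measured above a floor, the median of all non-control probe sets, which was 30.1 in the null array and 31.0 in the control array. A fold against a signal under the floor was computed against the floor and is written "at least". As a scale for the noise of a probe set, log2 ratios were compared between the 2 brightest probe sets of each of 4690 genes, which gave an SD of 0.27 per probe set. That scale does not hold differences between mice, pools or hybridizations. Msx1 had 23.0 in null cells, against 1581 in control cells, and Msx2 had 14.5 in null cells, against 63.7 in control cells. All 17 stromal fibroblast markers exceeded the floor of each array, with a median log2 ratio of 0.055, 10 of them above 0 and 7 below. Of the 17, 3 were past 1.5-fold higher in null cells and 0 were past 1.5-fold lower. The largest ratio was that of Hoxa11, 1.74-fold higher.

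Macrophage and shared myeloid genes were on balance lower in null cells, while genes of all leukocytes were close in both arrays. Of the 50 members, 41 were above the floor in both arrays, 3 in 1 array and 6 in neither. Among the 44 measured in at least 1 array, 6 were at least 2-fold lower, against 1.8% of all 11833 genes measured, and 1 was at least 2-fold higher, against 1.59% of all genes. The 6 were Csf2rb2, Csf2rb, Ms4a6d, Fcgr2b, Fcgr3 and Mrc1, and the 1 was Csf3. With log2 of signal plus 50, Ms4a6d, Fcgr3 and Mrc1 were just under 2-fold, at -0.99, -0.93 and -0.92. At 1.5-fold, 14 members were lower, against 6.92% of all genes, and 1 was higher, against 6.79%. In all, 37 of the 44 had a log2 ratio below 0 (84.1%), against 47.7% of all genes. The median log2 ratio, null minus control, was -0.44 over the members and 0.017 over all genes. Over the 41 members above the floor in both arrays, 35 had a ratio below 0, against 47.5% of the 11137 genes so measured. Because each array holds RNA of a mixed preparation, fewer cells of a type and less RNA per cell cannot be told apart.

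**Figure D1:**
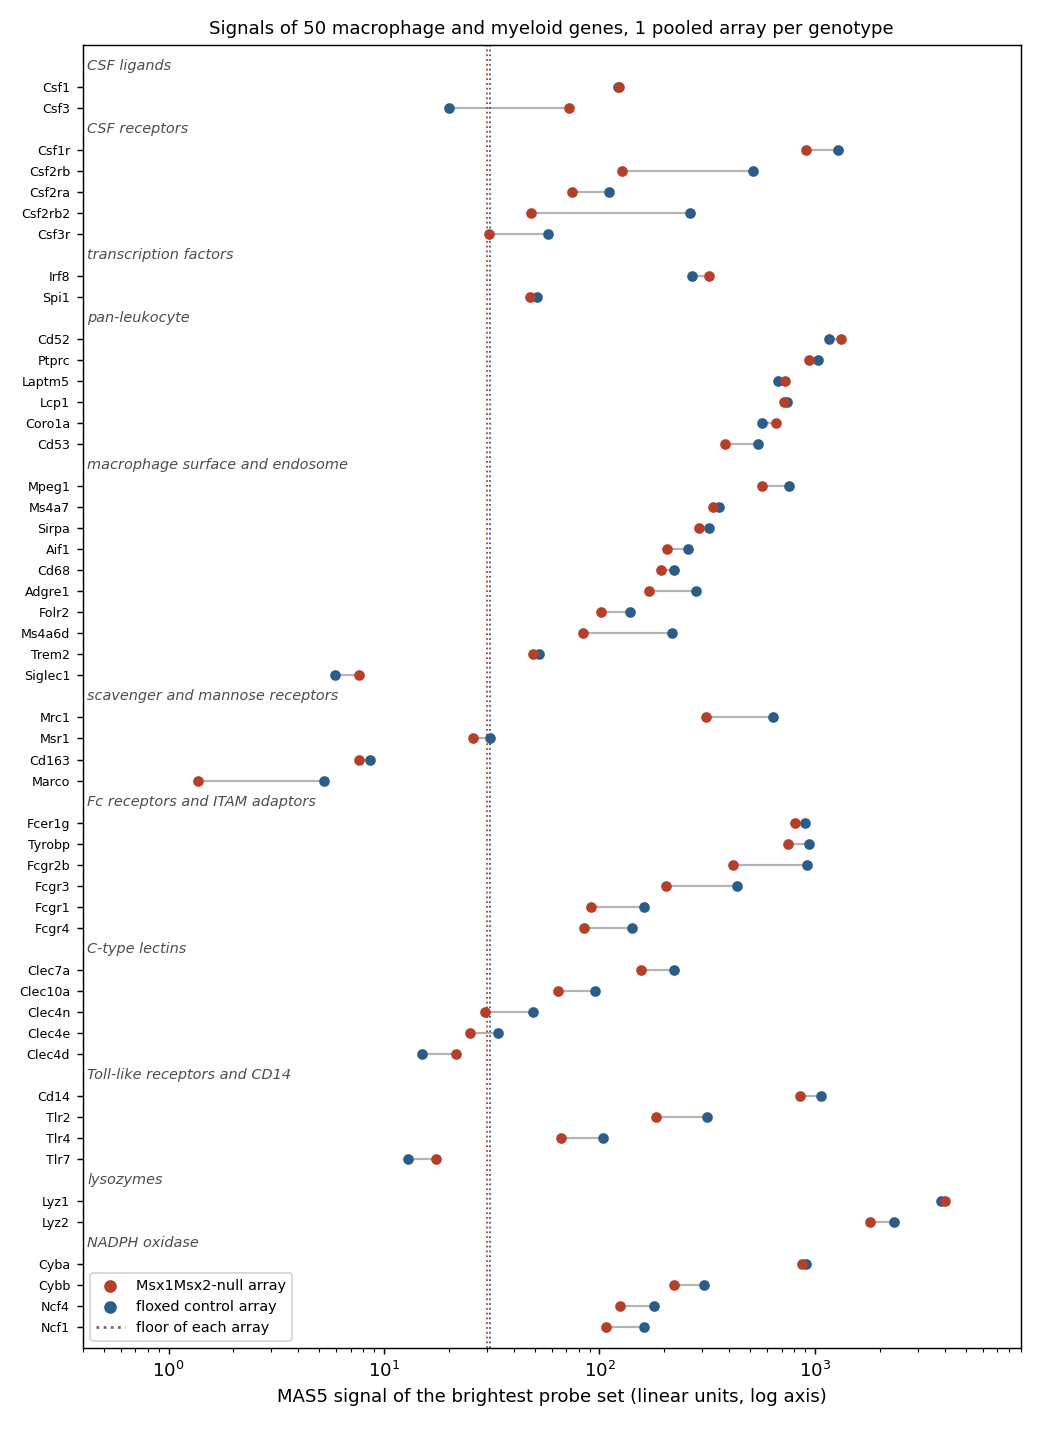
MAS5 signal of the brightest probe set of each of the 50 members (linear units on a log axis), 1 point for the null array and 1 for the control array, with the floor of each array as a dotted line; members are grouped by role. Null points lie left of control points for 37 of the 44 members above a floor, and the widest gaps among members above both floors are those of Csf2rb2 and Csf2rb.

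Set apart by cell class, the 14 measured macrophage genes had a median log2 ratio of -0.44, with 13 below 0 and 2 past 2-fold lower. The 21 measured genes shared by several myeloid cells had a median of -0.52, with 20 below 0 and 4 past 2-fold lower. Of these, 2 were above the floor in control cells alone, and 18 of the 19 above both floors were below 0. The 6 genes of all leukocytes had a median of 0.033, with 3 below 0 and 0 past 1.5-fold. That median changed sign to -0.057 when a gene was given by the median of its probe sets, and to -0.045 when probe sets ending in _x_at or _s_at were left out. The single neutrophil member, the granulocyte colony stimulating factor receptor gene Csf3r, had -0.91. Summed over the measured genes, the signal of the macrophage class was 8903 in null cells and 10632 in control cells. Of this sum, 4011 in null cells and 3842 in control cells came from Lyz1, a signal that cannot be assigned to that gene. Lyz1 was also the 1 measured macrophage gene with a positive ratio. The shared myeloid class summed to 5815 in null cells and 8216 in control cells. For the genes of all leukocytes the sum was 4761 in null cells and 4721 in control cells.

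**Figure D2:**
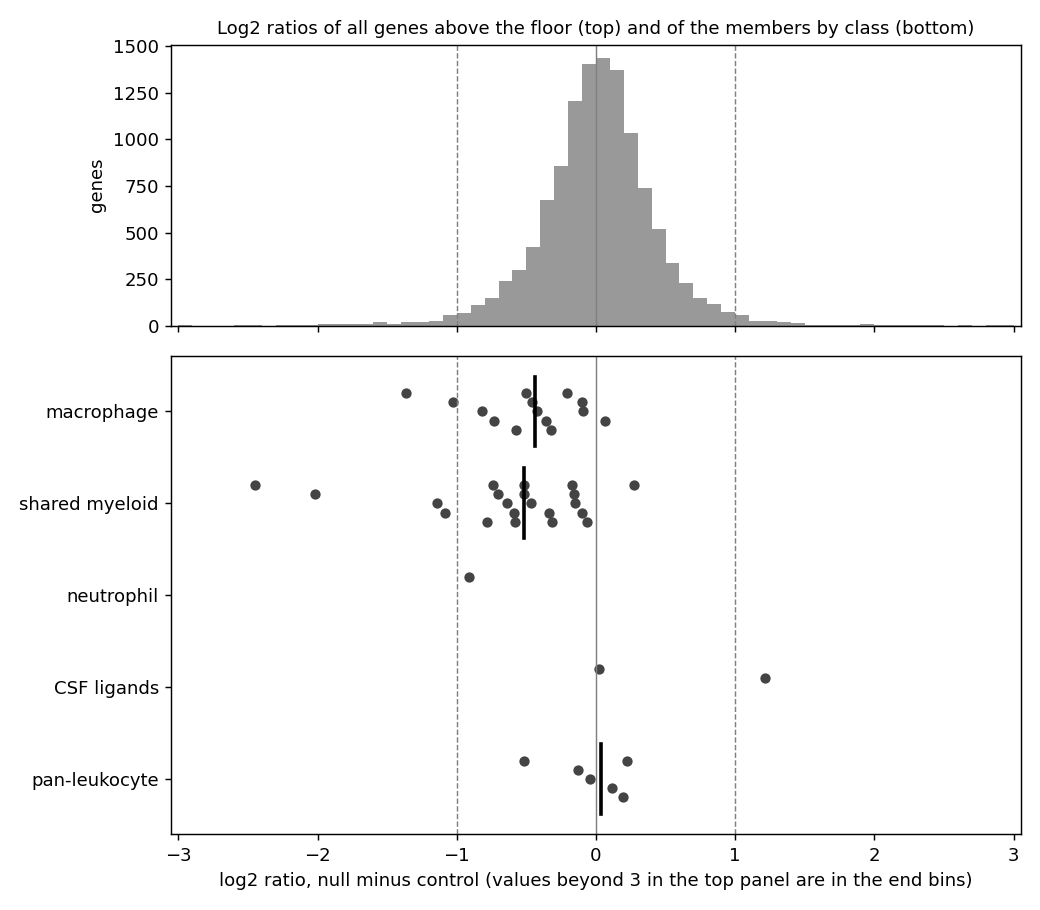
Log2 ratios, null minus control, of all 11833 genes above the floor as a histogram (top, number of genes per bin of 0.1) and of the 44 measured members by cell class (bottom, 1 point per gene, with a bar at the median of classes with more than 2 genes; vertical spread only separates points). Dashed lines mark 2-fold. The macrophage and shared myeloid medians are -0.44 and -0.52, and that of the genes of all leukocytes is 0.033.

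Of the ligand genes, Csf1 was close in both arrays and Csf3 could be measured in null cells alone. Csf1, the growth factor of tissue macrophages, had 124 in null cells, against 122 in control cells, a log2 ratio of 0.021. Its other measured probe set gave 58.5 in null cells, against 58.6 in control cells, so the arrays were nearly equal on both. Csf3, the granulocyte colony stimulating factor, had 72.1 in null cells, against 19.9 in control cells, where it lay under the floor, and was at least 2.32-fold higher. It has a single probe set, its ratio could only be positive because of the floor, and it was no longer called when the floor was put at the 65th percentile or 50 was added to the signals. The ligand genes Csf2, Il34, Il3 and Il5, which are not members, were below the floor of either array.

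All 5 colony stimulating factor receptor genes had lower signals in null cells. Csf2rb2, the mouse beta chain that serves interleukin 3, had 48.3 in null cells, against 264 in control cells, and was 5.46-fold lower. Its log2 ratio of -2.45 became -1.70 with the floor at the 65th percentile and -1.68 with log2 of signal plus 50. It ranked 8 from the lowest among the 11833 genes. Csf2rb, the beta chain common to the granulocyte-macrophage factor, interleukin 3 and interleukin 5 receptors, had 127 in null cells, against 515 in control cells, and was 4.06-fold lower, at rank 23. Its second probe set had 37.6 in null cells, against 164 in control cells, a log2 ratio of -2.13 beside -2.02 on the brightest, which became -1.68 with log2 of signal plus 50. The beta chain genes are neighbours on chromosome 15 with 0 protein-coding genes between them. Their sequences are closely similar but were not compared here. Whether signal of one reached the probe sets of the other was not tested. A probe set annotated to both lay below either floor, with 1.02 in null cells and 10.1 in control cells.

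Csf2ra, the alpha chain that binds the granulocyte-macrophage factor, had 74.2 in null cells, against 111 in control cells, a log2 ratio of -0.58. Csf3r had 30.7 in null cells, against 57.9 in control cells, 1.88-fold lower with a null signal just above the floor. Csf1r, the receptor on which macrophages depend, had 909 in null cells, against 1286 in control cells, 1.41-fold lower. Its other probe sets gave log2 ratios of -0.24 and -1.16, so all 3 lay below 0 but differed by 0.92. The alpha chain and Csf1r were thus within 2-fold on their brightest probe sets, whereas both beta chain genes lay past it.

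Mast cells also carry the beta chains, and their markers were read beside them. Of 7 mast cell markers on the array 5 were measured, and 3 of these were past 2-fold lower, with a median log2 ratio of -1.03. The chymase gene Mcpt4 was above the floor in control cells alone, so its ratio could only be below 0. Kit, the stem cell factor receptor, had 123 in null cells, against 479 in control cells. The mast cell carboxypeptidase gene Cpa3 had 61.3 in null cells, against 148 in control cells. Another chymase gene, Cma1, had 40.0 in null cells, against 81.8 in control cells, while the histidine decarboxylase gene Hdc, which the uterine epithelium also expresses, had 1516 in null cells, against 968 in control cells. The summed signal of the 5 was 1762 in null cells and 1717 in control cells, with Hdc the brightest of them in each. The tryptase gene Tpsb2 and the IgE receptor beta chain gene Ms4a2 lay below either floor. The part of mast cells in the beta chain ratios was not tested.

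The 2 transcription factor genes of the lineage among the members were close in both arrays, but Spi1 was dim. Spi1, which encodes PU.1, the factor needed to form macrophages and granulocytes, had 47.8 in null cells, against 51.3 in control cells, a log2 ratio of -0.10. Irf8, an interferon regulatory factor of monocytes and dendritic cells, had 324 in null cells, against 268 in control cells, a log2 ratio of 0.27, and 0.32 on its other probe set. It was the 1 measured shared myeloid member with a positive ratio.

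Genes of all leukocytes were bright. Ptprc, the CD45 phosphatase, had 940 in null cells, against 1030 in control cells. Cd52, a small surface glycoprotein, had 1329 in null cells, against 1162 in control cells, and Lcp1, the leukocyte plastin, had 720 in null cells, against 743 in control cells. Coro1a, an actin-binding coronin, had 661 in null cells, against 565 in control cells, but its second probe set had 408 in null cells, against 478 in control cells, and turned the sign. Laptm5, a lysosomal membrane protein, had 728 in null cells, against 674 in control cells, with log2 ratios of 0.29 and -0.66 on 2 other probe sets. The tetraspanin gene Cd53 had 382 in null cells, against 547 in control cells, and its log2 ratio of -0.52 was the lowest of the 6. These genes are not limited to macrophages, and markers of natural killer and T cells were read beside them. Of 10 measured natural killer and T cell markers 8 had positive ratios, with a median of 0.57 and a summed signal of 3534 in null cells and 2084 in control cells. Cd2 was above the floor in null cells alone, so its ratio could only be positive, and of the 9 above both floors 2 were negative, with a median of 0.62. Cd3d, a chain of the T cell receptor complex, had 82.2 in null cells, against 38.1 in control cells, 2.16-fold higher and the 1 past 2-fold, whereas Cd3g, another chain, had 87.8 in null cells, against 95.2 in control cells. Gzma, a cytotoxic granule protease gene, had 1063 in null cells, against 573 in control cells. Of the other T cell markers, Cd3e, Cd4 and Cd8a lay below either floor. The part of these lymphocytes in the ratios of the genes of all leukocytes was not tested.

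Of the 10 macrophage surface and endosome genes, 9 were measured and all 9 had ratios below 0, with a median of -0.33 and 1 past 2-fold. Ms4a6d, a membrane protein of the CD20-like family, had 83.9 in null cells, against 216 in control cells, 2.58-fold lower, and its second probe set had 49.8 in null cells, against 99.6 in control cells. Adgre1, which encodes the macrophage antigen F4/80, had 170 in null cells, against 282 in control cells, 1.66-fold lower. Adgre1 has a single probe set, while Ms4a6d was lower in null cells on each of its 2 above the floor.

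Folr2, a folate receptor of resident macrophages, had 101 in null cells, against 139 in control cells. Mpeg1, the pore-forming perforin-2, had 566 in null cells, against 759 in control cells. These had log2 ratios of -0.46 and -0.42. Aif1, the actin-bundling protein Iba1, had 206 in null cells, against 258 in control cells. Cd68, an endosomal glycoprotein, had 192 in null cells, against 221 in control cells. The Cd68 log2 ratio of -0.21 was smaller in size than the SD of 0.27 per probe set.

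Sirpa, the receptor for the CD47 signal, had 291 in null cells, against 322 in control cells. Trem2, a lipid-sensing receptor, had 49.2 in null cells, against 52.6 in control cells. Ms4a7, a relative of Ms4a6d, had 338 in null cells, against 360 in control cells. The ratios of these 3 were the nearest to 0 in this group and ran from -0.15 to -0.090, each smaller in size than the SD of 0.27 per probe set. Siglec1, the sialoadhesin of macrophages, lay below either floor, at 7.64 in null cells and 5.94 in control cells.

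Mrc1 was the 1 scavenger or mannose receptor gene of 4 that could be measured. This gene of the mannose receptor, which takes up glycoproteins, had 313 in null cells, against 637 in control cells, 2.03-fold lower. The hemoglobin scavenger receptor gene Cd163 and the scavenger receptor gene Marco lay below either floor, at no more than 8.62. Msr1, a class A scavenger receptor, had 25.9 in null cells and 30.9 in control cells and missed the control floor by less than 1 signal unit.

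All 6 Fc receptor and adaptor genes had ratios below 0, and 2 of them were past 2-fold lower. Fcgr2b, the inhibitory IgG receptor, had 415 in null cells, against 916 in control cells, 2.21-fold lower, and its 4 probe sets above the floor gave log2 ratios between -1.61 and -1.08. Fcgr3, a low-affinity activating receptor also carried by natural killer cells, had 204 in null cells, against 433 in control cells, 2.12-fold lower. The high-affinity receptor gene Fcgr1 had 91.2 in null cells, against 161 in control cells, 1.76-fold lower, although its dimmer probe set gave a log2 ratio of only -0.087. Fcgr4, an activating receptor of monocytes and neutrophils, had 84.5 in null cells, against 141 in control cells, 1.67-fold lower.

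Of the adaptor genes, Fcer1g, the common gamma chain that signals for the activating Fc receptors, had 809 in null cells, against 901 in control cells, a log2 ratio of -0.16. Tyrobp, the DAP12 adaptor of Trem2 and of natural killer cell receptors, had 754 in null cells, against 938 in control cells, a log2 ratio of -0.32. The 4 receptor genes thus lay between -1.14 and -0.74 on their brightest probe sets, and the adaptor genes nearer to 0. Whether receptors and adaptors differed was not tested. Fcgr2b and Fcgr4, and Fcgr4 and Fcgr3, are neighbours on chromosome 1 with 0 protein-coding genes between them. Whether signal of one of these receptor genes reached the probe sets of another was not tested.

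**Figure D3:**
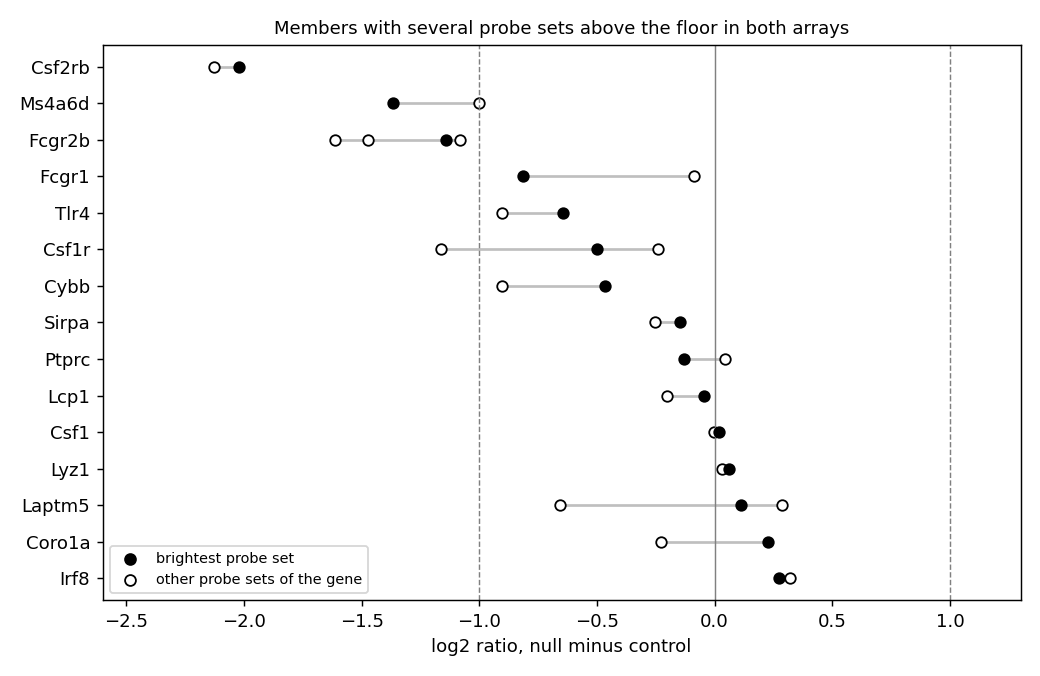
Log2 ratios, null minus control, of the 15 members with more than 1 probe set exceeding the floor of each array (filled points for the brightest probe set, open points for the others; dashed lines mark 2-fold). For 9 of these members every such probe set lies below 0, for Irf8 and Lyz1 every one lies above it, and Coro1a, Csf1, Laptm5 and Ptprc have probe sets on both sides.

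Over all members, 60 probe sets exceeded the floor of each array and 50 of them were lower in null cells, whereas 50.7% of all such probe sets on the array were. Of the 15 members with more than 1 such probe set, 9 were lower on all of them, 2 higher on all, and 4 had mixed signs. The mixed members were Csf1 and 3 genes of all leukocytes (Coro1a, Laptm5 and Ptprc), none of them past 1.5-fold on the brightest probe set. Probe sets of a gene read the same RNA pools, so this concerns the probes and not the genotype.

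The C-type lectin genes had lower signals in null cells where they could be measured, 4 of 5. Clec7a, which encodes the beta-glucan receptor dectin-1, had 156 in null cells, against 223 in control cells, and Clec10a, a galactose-binding lectin of macrophages and dendritic cells, had 63.9 in null cells, against 95.0 in control cells. Their log2 ratios were -0.52 and -0.57. Clec4n, which encodes dectin-2, had 29.6 in null cells, under the floor, against 49.0 in control cells, at least 1.63-fold lower. Clec4e, which encodes the Mincle receptor, had 25.1 in null cells, under the floor, against 33.8 in control cells, at least 1.13-fold lower. The ratios of these last 2 could only be below 0, because they were measured in control cells alone. Clec4d lay below either floor.

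Among the Toll-like receptors, Tlr2, which senses bacterial lipopeptides, had 183 in null cells, against 315 in control cells, 1.72-fold lower. Tlr4, the lipopolysaccharide receptor, had 66.6 in null cells, against 104 in control cells, 1.56-fold lower, and -0.90 on its second probe set. Cd14, the coreceptor that hands lipopolysaccharide to Tlr4, had 850 in null cells, against 1072 in control cells, a log2 ratio of -0.34. All 3 had ratios below 0 and none passed 2-fold. Tlr7, a sensor of single-stranded RNA, lay below either floor, at 17.4 in null cells and 12.9 in control cells.

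The lysozyme genes gave the brightest signals of the members. Lyz2, the lysozyme of macrophages, had 1808 in null cells, against 2323 in control cells, a log2 ratio of -0.36. Lyz1, the lysozyme of intestinal Paneth cells, had 4011 in null cells, against 3842 in control cells, a log2 ratio of 0.062. That signal and the second bright one of Lyz1 came from probe sets ending in _x_at, the suffix for probes that can match other transcripts, and its probe set without this suffix was under the floor, at 8.23 in null cells and 12.7 in control cells. The lysozyme genes are neighbours on chromosome 10 and closely similar, so the bright Lyz1 signal cannot be assigned to Lyz1. Among the genes of the phagocyte NADPH oxidase, which makes superoxide, the catalytic subunit gene Cybb had 221 in null cells, against 304 in control cells, and -0.90 on its second probe set beside -0.46. Ncf1, which organises the complex, had 107 in null cells, against 162 in control cells, 1.51-fold lower. Ncf4, a regulatory subunit, had 125 in null cells, against 179 in control cells. Cyba, the small membrane chain, which is also made outside phagocytes, had 875 in null cells, against 913 in control cells, a log2 ratio of -0.062. All 4 oxidase genes were below 0, and Ncf1 was the 1 past 1.5-fold.

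A list of other macrophage and monocyte genes, which are not members, was read in the same way. Of 27 on the array 21 were measured, 16 with ratios below 0 and 5 above, with a median of -0.16, 2 past 2-fold lower and 0 higher. Of the 19 above both floors 15 were below 0. Pirb, an inhibitory immunoglobulin-like receptor, had 41.5 in null cells, against 109 in control cells, and Retnla, a product of alternatively activated macrophages, had 78.4 in null cells, against 191 in control cells. C1qb, a complement chain made by macrophages, had 857 in null cells, against 1416 in control cells. Itgb2, the beta chain of leukocyte integrins, which lymphocytes also carry, had 309 in null cells, against 197 in control cells. The summed signal of the 21 was 9102 in null cells and 10839 in control cells. Of 12 neutrophil genes 5 were measured, all below 0, none past 1.5-fold, with a median of -0.40. Of these, 2 were above the floor in control cells alone, so their ratios could only be below 0. Among the 3 above both floors, Il1b was the brightest, with 310 in null cells, against 408 in control cells. S100a9 had 65.2 in null cells, against 94.7 in control cells. The granule genes Mpo, Elane, Camp and Ngp and the chemokine receptor gene Cxcr2 lay below either floor.

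Markers of other cell types in the preparation also had unequal signals. All 12 endothelial markers had ratios below 0, with a median of -0.68 and a summed signal of 3373 in null cells and 5188 in control cells, and Emcn had 515 in null cells, against 954 in control cells. Of 11 measured epithelial markers 8 had ratios below 0, with a median of -0.10 and a summed signal of 9702 in null cells and 11214 in control cells. Past 1.5-fold, 1 epithelial marker was lower and 3 were higher in null cells. Krt18 was the lower 1, with 1350 in null cells, against 2822 in control cells. Krt19, Cldn7 and Elf3 were 2.05-fold, 1.88-fold and 1.75-fold higher in null cells. The 17 stromal fibroblast markers summed to 71942 in null cells and 69397 in control cells. Of B cell markers, 2 of 6 were measured, with Ighm at 150 in null cells, against 367 in control cells, and Jchain at 3838 in null cells, against 3085 in control cells. The 4 erythroid markers on the array lay below either floor. The ratio of 3' to 5' signal, which goes up with RNA degradation, was 1.28 in the null array and 0.967 in the control array for Gapdh, and 2.33 in the null array and 1.80 in the control array for Actb. The part of cell composition and of RNA quality in the members' ratios was not tested.

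**Figure D4:**
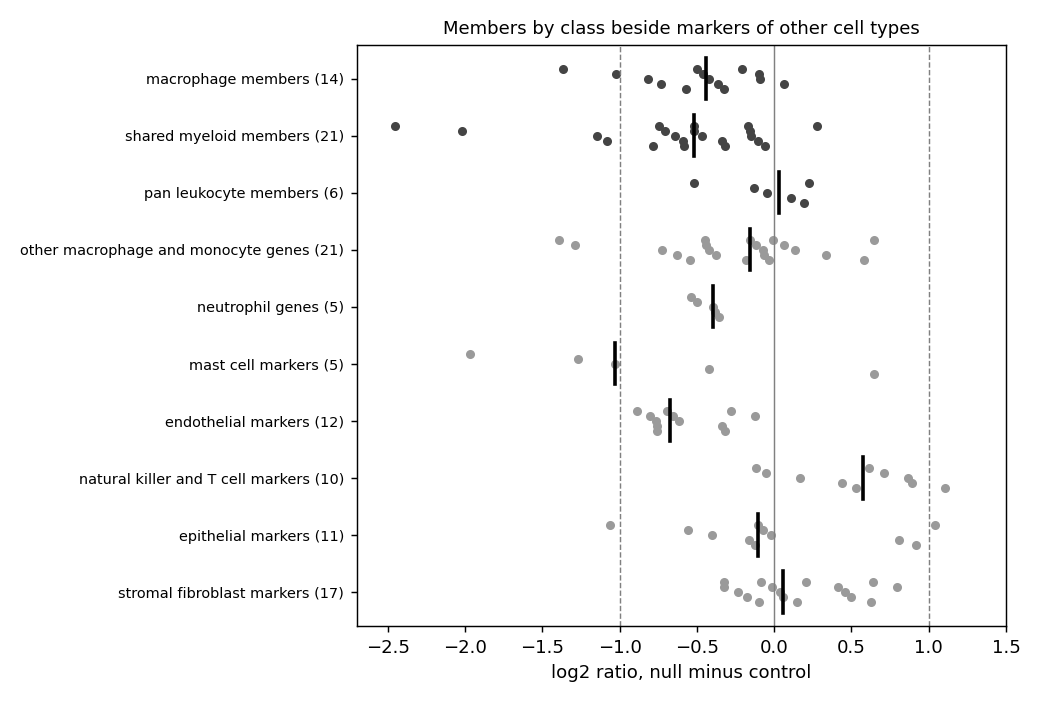
Log2 ratios, null minus control, of measured members by class (dark points) and of marker genes of other cell types (grey points), with the number of genes in brackets and a bar at each median; dashed lines mark 2-fold. Endothelial markers, with a median of -0.68, lie below the macrophage members at -0.44, and 8 of 10 natural killer and T cell markers lie above 0, with a median of 0.57.

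Since many myeloid promoters bind PU.1, the promoters of the members were searched for its core. The RefSeq promoter table, on GRCm38.p6, held windows of 300 bases, from 250 before to 50 after the transcription start, for 33 of the 50 members. The letters GAGGAA, read on both strands, were in a window of 19 of the 33 members (57.6%), against 31.3% of 27025 genes in the table. Counted by window, 21 of 41 member windows held it (51.2%), against 28.3% of 32851. The letters TAATTG, a core that Msx homeodomains bind, were in a window of 5 of the 33 members (15.2%), against 9.22% of all genes. Both motifs are short, the words do not overlap each other, and a match is a description of the letters and not a binding site. The 4 members past 2-fold lower that have a window are shown because they carry the largest ratios. They are Csf2rb2 (chr15:78305672-78305971, minus strand), Mrc1 (chr2:14229164-14229463, plus strand), Fcgr3 (chr1:171059345-171059644, minus strand, the lower in position of its 2 overlapping windows) and Fcgr2b (chr1:170976022-170976321, minus strand). The sequences run 5′ to 3′ along the transcribed direction, and capitals mark GAGGAA or its reverse complement TTCCTC.
Csf2rb2: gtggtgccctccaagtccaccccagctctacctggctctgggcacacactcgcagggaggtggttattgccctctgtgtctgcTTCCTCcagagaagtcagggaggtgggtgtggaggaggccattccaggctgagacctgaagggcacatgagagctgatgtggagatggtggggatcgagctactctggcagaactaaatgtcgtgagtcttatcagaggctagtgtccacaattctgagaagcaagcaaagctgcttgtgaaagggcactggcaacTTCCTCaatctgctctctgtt
Mrc1: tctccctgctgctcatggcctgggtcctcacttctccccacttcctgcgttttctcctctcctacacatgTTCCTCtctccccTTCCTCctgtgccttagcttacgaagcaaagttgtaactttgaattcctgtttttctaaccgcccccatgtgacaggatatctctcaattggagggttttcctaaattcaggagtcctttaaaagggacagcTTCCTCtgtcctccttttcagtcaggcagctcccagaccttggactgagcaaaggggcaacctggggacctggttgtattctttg
Fcgr3: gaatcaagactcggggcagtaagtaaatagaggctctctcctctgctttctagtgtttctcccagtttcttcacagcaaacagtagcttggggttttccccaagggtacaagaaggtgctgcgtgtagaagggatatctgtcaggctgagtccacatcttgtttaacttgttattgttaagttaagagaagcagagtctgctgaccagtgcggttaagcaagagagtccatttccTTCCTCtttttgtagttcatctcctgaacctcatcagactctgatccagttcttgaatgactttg
Fcgr2b: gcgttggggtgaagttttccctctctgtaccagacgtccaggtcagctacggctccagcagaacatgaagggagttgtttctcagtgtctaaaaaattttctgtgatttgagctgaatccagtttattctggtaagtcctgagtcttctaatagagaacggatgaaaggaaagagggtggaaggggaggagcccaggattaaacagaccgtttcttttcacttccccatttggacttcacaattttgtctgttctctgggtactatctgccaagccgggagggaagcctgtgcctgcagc
The window of Mrc1 holds 3 matches, that of Csf2rb2 holds 2 and each of the 2 windows of Fcgr3 holds 1, while the letters are not in the window of Fcgr2b. In these 4 windows TAATTG has 0 matches.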

How the data were processed

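Uterine stromal cells were measured on Affymetrix 3' expression arrays, 1 array of pooled RNA per genotype. Per the submitters' processing notes, the authors ran MAS5 in Affymetrix Expression Console 1, which gives 1 linear signal intensity per probe set and array, and deposited these intensities. The mean signal after trimming 2% at each end was 150.0 in each array, so the deposited signals share a common scale. Detection calls, background settings and scaling settings are not given in the sources used here.

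The table held 45101 probe sets, 64 of them controls. The platform annotation gave 1 symbol for 34945, several for 932 and none for 9160, and only those with 1 symbol were used. All 50 members matched the RefSeq gene table by Entrez ID and symbol. Of 128 marker genes, 14 were not found by their symbol and were left out. The build behind the probe design is not known here, so no probe or gene coordinates are printed. Promoter windows and their GRCm38.p6 coordinates come from the RefSeq promoter table. No protein sequences were used here.

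Log2 ratios are null minus control, without further scaling. The probe set of highest mean log2 signal stood for its gene. The floor was the 50th percentile of the non-control probe sets of an array. A gene was used when at least 1 signal was above it, and a lower signal was raised to it. Of 18193 genes 11833 were used. The arrays number 1 per genotype, which limits the precision: no p-value, SD over mice or count of changed genes by test could be made, and calls are by size at 2-fold. The members, lists, floor and threshold were chosen with earlier results of these data known. All members are named, with at most 4 genes of each marker list, taken from those with the largest ratios. Genes named outside that rule, Cd3g, Cd2, Mcpt4 and those under the floor, were chosen after their values were seen. The calculation was tested on simulated data, in which 200 genes well above the floor were lowered by more than the 2-fold call. That test does not cover dimmer genes or smaller differences. Python 3.11.15, numpy 2.4.6, pandas 2.3.3 and matplotlib 3.10.9 were used.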

Additional observations from a re-analysis of the deposited data

How the results depend on the processing

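All alternatives were fixed with earlier results of these data known. The count of members at least 2-fold lower was 6 of 44, against 1.80% of all genes. It fell to 3 of 44 with log2 of signal plus 50, against 0.777% of all genes. That setting shrinks ratios of dim genes by its construction, and the 3 were Csf2rb, Csf2rb2 and Fcgr2b. With no floor the count was 7 of 50, with Marco added, against 9.74% of all genes, so the excess over all genes was smaller there. Under the other alternatives run the count was 6, with the same genes, against 1.27% to 1.87% of all genes. The single member past 2-fold higher, Csf3, was lost (count 0) with the floor set to the 65th percentile and with log2 of signal plus 50. The median of the members was -0.39 with no floor and -0.39 with the floor set to the 65th percentile, and -0.34 with log2 of signal plus 50 (-0.335). With that last setting the macrophage and shared myeloid medians were -0.351 and -0.387. The median of the genes of all leukocytes turned to -0.0568 when a gene was given by the median of its probe sets, and to -0.0452 without _x_at and _s_at probe sets; the cause was not tested. The log2 ratio of Csf2rb2 went to -1.70 with the higher floor and -1.68 with log2 of signal plus 50, and that of Csf3 to 1.86 with no floor. Of single members, Laptm5 and Coro1a changed sign with the median over probe sets, and no measured member did under the other alternatives. Quantile normalization and centring moved no call. No paired analysis was possible because each genotype has 1 array and no test was made. Leaving out a replicate was not possible for the same reason. Members under the floor of about 30 signal units in both arrays, 6 of 50, could not be compared.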
